A study of Mus musculus with 30 samples.

Results

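The 10 genes described here are the G1 cyclins, their kinases and 2 of their brakes: Ccnd1, Ccnd2, Ccnd3, Ccne1, Ccne2, Cdk2, Cdk4, Cdk6, Cdkn1b and Rb1. They were chosen by name, with earlier results of these data known, and are 10 of 55401 genes in the count tables. All 10 passed the filter on low counts in every comparison. Nuclear RNA from mouse embryonic stem cells was sequenced in 30 libraries, which make 15 conditions of 2 libraries each in 4 separate count tables. CGR8 is the parental line, with no degron, kept as a control or given 500 µM of the auxin IAA for 4 h. SYAT cells derive from 1 homozygous clone of CGR8 in which both Srcap alleles carry YPet-AID. That clone was transduced with OsTir1 under the EF1a promoter, selected, and sorted for loss of YPet under IAA, so that IAA leads to degradation of SRCAP. SYAT cells were kept as a control in the Tir1 inhibitor auxinole or given 500 µM IAA over 4 time points (2, 4, 6 and 8 h). For the third table, SYAT cells with an mCherry mitotic degron were sorted by DNA content and mCherry into early G1 (EG1) and late G1 (LG1), as a control or after 1 h of IAA. For the fourth, 1 SYAT clone with doxycycline-inducible wild-type SRCAP-mCherry (wtSRCAP) and 1 with a catalytically dead form (cdSRCAP) were used. Both received 1 µg/mL doxycycline for 24 h in every library, the controls included, were left in auxinole as a control or given IAA for 4 h, and were sorted for similar mCherry. With 1 clone for each form, the form and the clone cannot be told apart. All cells were moved to serum and LIF medium before the experiments.

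D-type cyclins bind CDK4 or CDK6, and cyclin E binds CDK2. In sequence, these kinases phosphorylate the retinoblastoma protein, encoded by Rb1, and so free E2F factors that switch on genes for DNA replication. p27, encoded by Cdkn1b, binds and inhibits cyclin E-CDK2. Mouse embryonic stem cells are known for a short G1 phase and high cyclin E. SRCAP is the catalytic subunit of the complex that exchanges H2A for the histone variant H2A.Z at promoters and enhancers.

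By GENCODE on GRCm38 (mm10), Ccnd1 lies at chr7:144929931-144939925 and Ccne1 at chr7:38097984-38107534, both on the minus strand. Ccnd2 lies at chr6:127125162-127152193 on the minus strand and Cdkn1b at chr6:134920401-134925513 on the plus strand. Ccnd3 spans chr17:47505051-47599691 and Ccne2 chr4:11191351-11204779, both on the plus strand. Cdk2 lies at chr10:128697939-128705031 on the minus strand and Cdk4 at chr10:127063534-127067920 on the plus strand. Cdk6 spans chr5:3341485-3531008 on the plus strand and Rb1 chr14:73183673-73325822 on the minus strand. Except for Ccne1 and Cdkn1b, each overlaps at least 1 annotated gene on the opposite strand (such as Bysl for Ccnd3 and Tspan31 for Cdk4), and the strand setting of the authors' counting is not given in the sources used here, so reads of such pairs may not be separated.

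RefSeq promoter sequences on GRCm38.p6 were at hand for 6 of the 10 genes. The stretches below are shown for the 3 of these genes that passed a test after IAA (Ccnd3, Ccne1 and Cdk6) and for Cdk4, the gene with the highest level per length. They end at the first annotated exon they meet or at the RefSeq start and read 5′ to 3′ on the strand of the gene. Capitals mark the GC box GGGCGG on either strand and the E-box CACGTG, which reads the same on both strands. They are, in order, chr17:47504801-47505050 (plus strand), chr7:38107535-38107740 (minus strand), chr5:3343643-3343731 (plus strand, inside the annotated span of Cdk6) and chr10:127063285-127063533 (plus strand).
Ccnd3: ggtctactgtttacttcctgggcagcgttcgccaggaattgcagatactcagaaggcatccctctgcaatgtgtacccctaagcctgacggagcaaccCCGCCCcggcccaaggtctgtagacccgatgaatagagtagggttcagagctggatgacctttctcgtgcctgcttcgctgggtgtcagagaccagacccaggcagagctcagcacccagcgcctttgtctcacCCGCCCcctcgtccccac
Ccne1: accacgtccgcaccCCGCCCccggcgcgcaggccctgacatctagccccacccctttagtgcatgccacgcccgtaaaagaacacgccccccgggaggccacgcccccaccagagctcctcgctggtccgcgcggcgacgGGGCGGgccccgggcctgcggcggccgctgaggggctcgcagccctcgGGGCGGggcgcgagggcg
Cdk6: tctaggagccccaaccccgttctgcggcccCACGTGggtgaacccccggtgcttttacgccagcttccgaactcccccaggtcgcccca
Cdk4: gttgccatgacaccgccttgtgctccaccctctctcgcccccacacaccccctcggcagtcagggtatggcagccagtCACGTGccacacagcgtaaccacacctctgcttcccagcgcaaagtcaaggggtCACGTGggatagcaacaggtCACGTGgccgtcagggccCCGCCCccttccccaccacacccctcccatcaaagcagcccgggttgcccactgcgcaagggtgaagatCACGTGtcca
The stretches differ in these motifs. In the 250 bases before the RefSeq start, Ccne1 held 4 GC boxes (3 of them in the stretch shown) and no E-box. Cdk4 held 4 E-boxes and 1 GC box, Ccnd3 2 GC boxes, and Cdk6 1 E-box with no GC box. Ccnd3 has a second RefSeq start, whose window at chr17:47593217-47593466 held 1 GC box and is not shown. Of 32851 such windows in the whole table, 32.7% held a GC box and 6.02% an E-box. The E2F words TTTCGCGC, TTTGGCGC, TTTCCCGC and TTTGCCGC, on either strand, matched 1.86% of windows, and among the 6 genes only that of Cdk2, with 1 match. These matches describe the letters only.

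Exon columns held between 12236493 and 60214521 counts per library, and the 10 genes between 44 (Rb1) and 27338 (Cdk4) exon counts in single libraries. All 8 markers of the labelled cell type had counts in every library, at unlike levels. Pou5f1 and Sox2 were at 254 CPM (exonic counts divided by the exonic total of the library, in the usual unit) or more in all 30 libraries. Nanog and Klf4 were at 42.5 to 114 and 19.0 to 43.9 CPM in SYAT cells, and at 46.0 to 78.4 and 35.8 to 73.6 CPM in sorted cells. They were at 231 to 383 and 140 to 173 CPM in CGR8 cells, and at 100 to 335 and 75.7 to 181 CPM in wtSRCAP and cdSRCAP cells. Postn was at 0 in all libraries. Summed over its list, the level of fibroblast markers reached at most 46.8 CPM, of endoderm 11.3 and of mesoderm 24.6, whereas 8 embryonic stem cell markers summed to at least 1508 CPM. Neuroectoderm markers summed to 45.5 to 385 CPM, with Nes alone at 33.7 to 378 CPM. IAA acts on the SRCAP protein, and the Srcap transcript, at 42.8 ± 4.2 CPM in SYAT controls and 51.8 ± 9.8 CPM after 8 h of IAA (SD, n = 2), does not check degradation. In the SYAT time course, the 2 replicates of the 6 h condition differed most, with a mean chi-square per gene between them of 131. The other 4 conditions were at 36.3 to 57.4. This value does not say which of the 2 libraries departs. In Ccnd1, Ccnd3, Ccne2, Cdk4 and Rb1, replicate 2 of 6 h lay outside the range of all other SYAT libraries, and in the rest of the 10 it did not. Results at 6 h are given with and without replicate 2.

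**Figure D1:**
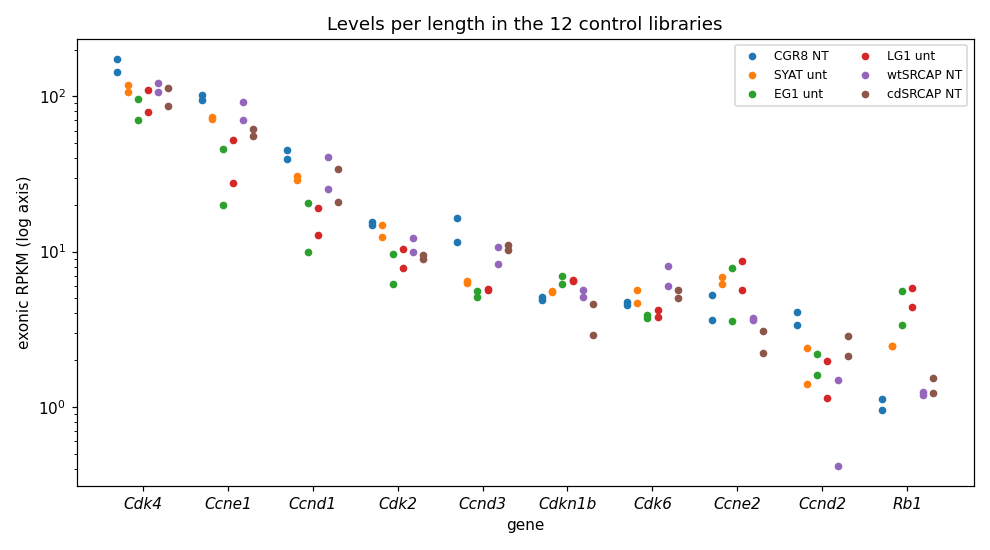
Exonic RPKM (reads scaled to exon length and to the TMM-scaled exonic total, log axis) of the 10 genes in the 12 control libraries, 2 points per gene and condition. Cdk4 and Ccne1 lie highest in each condition, and Ccnd2 or Rb1 lowest.

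Per length, the 10 genes ranged from 1.04 to 158 RPKM in CGR8 controls and from 1.89 to 82.9 RPKM in EG1 controls. Their upper ranks were the same in all 6 control conditions. Cdk4 was highest, at 113 ± 8.0 RPKM in SYAT controls and 158 ± 21 RPKM in CGR8 controls (SD, n = 2). Ccne1 came next, at 72.6 ± 2.1 RPKM in SYAT controls, and Ccnd1 followed at 29.8 ± 0.99 RPKM. These 3 kept ranks 1 to 3 in the CGR8, SYAT, EG1, LG1, wtSRCAP and cdSRCAP controls. Cdk2 was at 13.7 ± 1.7 RPKM in SYAT controls. Ccne2 (6.52 ± 0.49 RPKM) and Ccnd3 (6.36 ± 0.12) overlapped in their libraries there, as did Cdkn1b (5.50 ± 0.059) and Cdk6 (5.17 ± 0.72), so those neighbours in the order did not separate beyond their spread. Rb1 (2.47 ± 0.0014) and Ccnd2 (1.89 ± 0.70) were lowest.

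Within each pair of related genes, 1 member dominated in level. The RPKM of Cdk4 exceeded that of Cdk6 by 13.1-fold to 38.4-fold over the 30 libraries. Cyclin E1 RNA exceeded cyclin E2 RNA by 10.8-fold to 29.6-fold in the unsorted cells and in wtSRCAP and cdSRCAP cells, and by 4.92-fold to 6.53-fold in the 8 libraries sorted in G1. These sorted cells stand in a table of their own, so the difference between tables was not tested. Among D cyclins, Ccnd1 exceeded Ccnd3 by 1.91-fold to 6.45-fold and Ccnd2 by 4.58-fold to 60.1-fold.

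**Figure D2:**
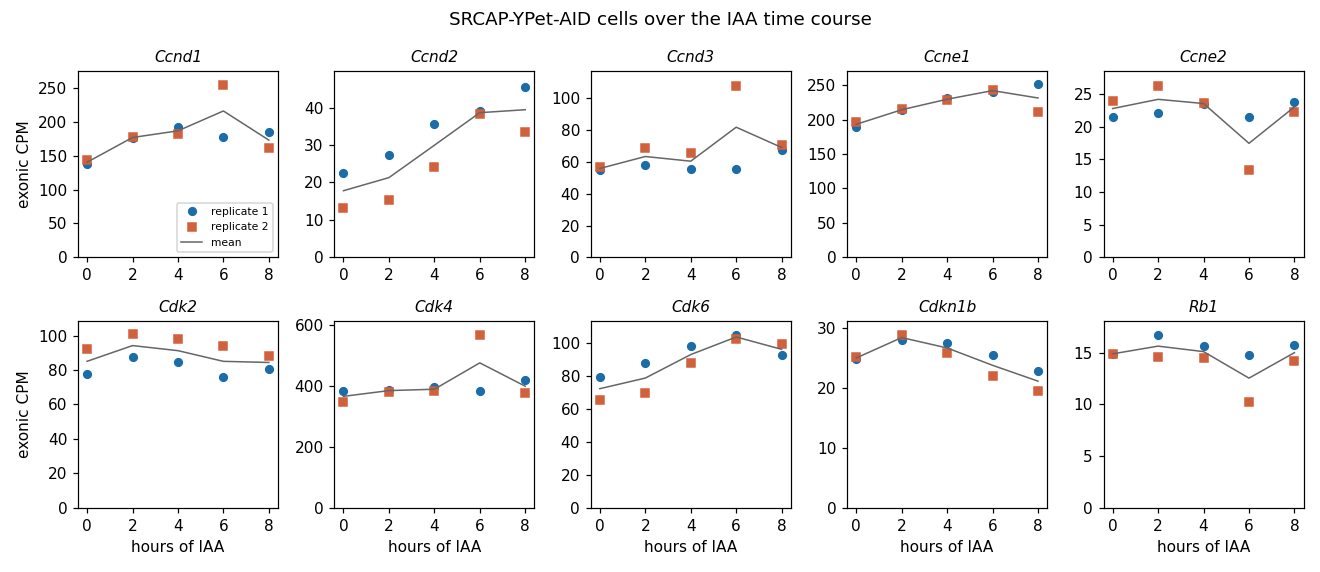
Exonic CPM of the 10 genes in SYAT cells against hours of IAA, with each library as a point and the mean as a line. Ccnd2 lies at 22.4 and 13.2 CPM in the controls and at 45.4 and 33.5 CPM after 8 h, and replicate 2 at 6 h departs from replicate 1 in Ccnd1, Ccnd3, Ccne2, Cdk4 and Rb1.

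The first question was how G1 regulators move as SRCAP is lost over 8 h. Of the 10, Ccnd2 (cyclin D2) had the largest fold change at 4, 6 and 8 h. Its replicates 1 and 2 were at 22.4 and 13.2 CPM in controls, 27.2 and 15.4 at 2 h, 35.6 and 24.2 at 4 h, 39.0 and 38.3 at 6 h, and 45.4 and 33.5 at 8 h. From 4 h on, both treated libraries lay above both controls, and at 2 h the groups overlapped. The log2 fold changes against control were 0.26 ± 0.33, 0.75 ± 0.32, 1.12 ± 0.33 and 1.15 ± 0.33 (± SE) at 2, 4, 6 and 8 h, with adjusted p of 1, 0.53, 0.15 and 0.16 by edgeR's quasi-likelihood test, so no time point passed in this fit. DESeq2 called Ccnd2 at 6 and 8 h (adjusted p = 0.0195 and 0.0205). The summed level of 4 mesoderm markers was 13.3 and 9.67 CPM in controls and 14.9 to 24.6 CPM in the 8 treated libraries, and its part in these results was not tested. Fewer cells that express a gene and less RNA per cell cannot be told apart in such bulk libraries.

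Ccnd1 (cyclin D1), the most abundant D cyclin here, was at 137 and 144 CPM in controls, 176 and 177 at 2 h, 192 and 181 at 4 h, 178 and 254 at 6 h, and 184 and 161 at 8 h. Every treated library lay above both controls. The log2 fold changes were 0.33, 0.41, 0.62 and 0.30 in time order, each ± 0.16, and the smallest adjusted p was 0.12, at 6 h. Without replicate 2 of 6 h, the value at that time was 0.35 ± 0.11 (adjusted p = 0.26). Ccnd3 (cyclin D3) was at 55.0 and 56.5 CPM in controls and at 55.5 and 108 CPM at 6 h, where only replicate 2 was high. Its log2 fold change at 6 h of 0.55 ± 0.25 became -0.0033 ± 0.15 without that library.

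Among the E cyclins, which activate CDK2, Ccne1 lay above both controls (189 and 197 CPM) in every treated library. It was at 213 and 215 CPM at 2 h, 231 and 228 at 4 h, 241 and 243 at 6 h, and 252 and 210 at 8 h. The log2 fold changes of 0.15 to 0.33 did not pass (adjusted p of 0.23 or more). Ccne2 stayed between 21.5 and 26.3 CPM apart from replicate 2 of 6 h, at 13.4 CPM. Cdk2, their kinase partner, ranged from 76.2 to 101 CPM, and treated libraries overlapped the controls (77.8 and 92.3 CPM) at every time.

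Cdk6, a partner of D cyclins, was at 79.4 and 65.2 CPM in controls, 87.9 and 69.6 at 2 h, 98.3 and 87.6 at 4 h, 105 and 102 at 6 h, and 92.8 and 99.6 at 8 h. The groups overlapped at 2 h and did not at 4, 6 and 8 h, with log2 fold changes of 0.36 ± 0.15, 0.52 ± 0.15 and 0.41 ± 0.15 and adjusted p of 0.52, 0.16 and 0.28. Cdk4, its paralogue, lay within 378 to 421 CPM after IAA, except for 567 CPM in replicate 2 of 6 h, against 385 and 348 CPM in controls. Cdkn1b was at 24.9 and 25.2 CPM in controls, 28.0 and 28.9 at 2 h, and 22.9 and 19.5 at 8 h. It lay above the controls at 2 h and below them at 8 h (log2 fold changes of 0.18 ± 0.16 and -0.24 ± 0.16), and neither passed. Rb1 was between 14.2 and 16.7 CPM in all libraries but replicate 2 of 6 h, at 10.3 CPM.

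In all, edgeR called 0 of the 10 genes at 2, 4, 6 and 8 h, where it called 0%, 0%, 0.0677% and 0.00521% of 19205 genes. Unadjusted p fell under 0.05 for 0, 3, 5 and 2 of the 10, against 3.92%, 9.09%, 16.1% and 13.6% of all genes. DESeq2 called 0, 0, 2 and 1 (Ccnd1 and Ccnd2 at 6 h, Ccnd2 at 8 h). Of all 35880 genes it tested, it called 2, 28, 223 and 87 higher and 6, 95, 351 and 272 lower. Both treated libraries lay above both controls for 4, 5, 5 and 5 of the 10, beside 18.6%, 21.7%, 21.5% and 20.9% of all genes. They lay below both controls for 0, 0, 2 and 1, beside 21%, 24.1%, 22.2% and 24% of all genes. Median log2 fold changes over the 10 were 0.15, 0.11, 0.35 and 0.19, and over all genes 0.0034, 0.018, 0.0096 and 0.031. Without replicate 2 of 6 h, edgeR also called 0 of the 10 at 6 h, with Ccnd2 at 1.14 ± 0.40 and Cdk6 at 0.54 ± 0.17 (adjusted p = 0.29 and 0.25). The 4 comparisons share their 2 control libraries.

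In the SYAT contrasts, IAA and the change from auxinole cannot be told apart, since the controls were kept in auxinole. CGR8 cells, which carry neither the degron nor OsTir1, received IAA without SRCAP degradation. Ccnd2 was at 38.4 and 31.9 CPM in their controls and at 50.5 and 43.1 CPM after 4 h of IAA. It was the single gene of the 10 that lay higher in both treated libraries than in both controls, with a log2 fold change of 0.41 ± 0.16 (adjusted p = 0.54). Beside it, the SYAT value at 4 h was 0.75 ± 0.32. The tables are separate, and the difference between the 2 responses was not tested. Ccne2 was at 12.7 and 18.3 CPM in controls and 18.1 and 31.1 CPM after IAA, overlapping (0.67 ± 0.28, adjusted p = 0.54). Cdkn1b was lower after IAA, at 16.9 and 19.4 CPM against 23.1 and 22.3 CPM (-0.32 ± 0.16, adjusted p = 0.58).

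Ccnd1 (-0.02 ± 0.14) and Cdk6 (-0.06 ± 0.13), which lay above their controls in SYAT cells at 4 h, had log2 fold changes near 0 in CGR8 cells. The other 5 lay between -0.15 and 0.25. By edgeR 0 of the 10 were called in CGR8 cells, where 0.00988% of 20250 genes were, and by DESeq2 also 0. At an unadjusted p under 0.05 there were 2 (Ccnd2 and Ccne2), against 9.16% of genes, and the groups did not overlap for 2, against 42.2%. Median log2 fold change was 0.011 over the 10 and -0.0003 over all genes.

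**Figure D3:**
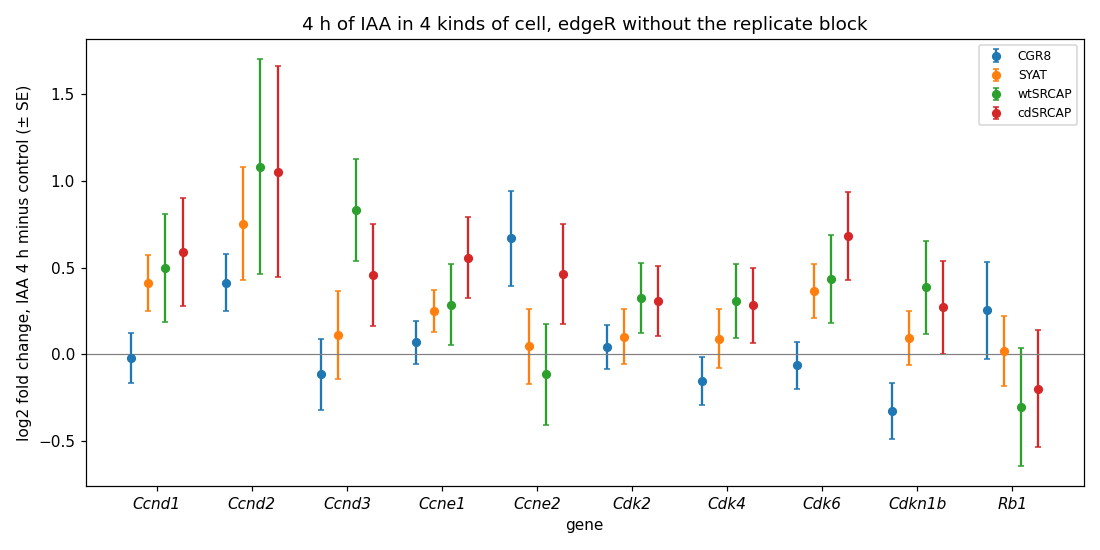
Log2 fold change after 4 h of IAA (± SE, edgeR without the replicate term) of each gene in CGR8, SYAT, wtSRCAP and cdSRCAP cells. Ccnd2 is above 0 in all 4 kinds of cell, at 0.41, 0.75, 1.08 and 1.05, and the values come from 3 separately scaled tables.

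The next question was whether wild-type or catalytically dead SRCAP, expressed while the endogenous protein is degraded, alters these genes. Libraries with the same replicate number deviated together in this table, so each result is given without and with a term for the replicate number. The 2 wtSRCAP libraries after IAA stood apart from each other, with a mean chi-square per gene of 275 against 110 to 139 in the other 3 conditions. Without replicate 2 of them, calls with the term among all genes after IAA in wtSRCAP cells went from 332 higher and 280 lower to 1494 and 1421. Ccnd2 was at 3.95 and 14.1 CPM in wtSRCAP controls (replicates 1 and 2) and at 8.39 and 29.6 CPM after IAA. In cdSRCAP cells it was at 19.96 and 27.1 CPM in controls and at 44.9 and 52.8 CPM after IAA. It roughly doubled within each replicate of each clone, and in wtSRCAP cells the groups still overlapped, since replicate 2 was over 3 times replicate 1. The log2 fold changes were 1.08 ± 0.62 in wtSRCAP and 1.05 ± 0.61 in cdSRCAP cells (adjusted p = 0.75 and 0.97), and with the replicate term 1.07 ± 0.29 and 1.103 ± 0.27 (adjusted p = 0.039 and 0.034), at which edgeR called both. DESeq2 with the term called neither (adjusted p = 0.26 and 0.31). The difference between the 2 responses was -0.03 ± 0.85 without and 0.03 ± 0.40 with the term (adjusted p = 1 and 0.999).

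Ccnd1 was at 119 and 192 CPM in wtSRCAP controls and 201 and 237 CPM after IAA, and at 98.4 and 160 CPM in cdSRCAP controls and 169 and 220 CPM after IAA. Both clones showed treated libraries above their controls. With the replicate term its log2 fold change was 0.53 ± 0.15 in wtSRCAP and 0.61 ± 0.15 in cdSRCAP cells (adjusted p = 0.044 and 0.029), and without it 0.50 ± 0.31 and 0.59 ± 0.31 (0.76 and 0.93). Ccnd3 was at 94.5 and 72.8 CPM in wtSRCAP controls and 190 and 107 CPM after IAA, and rose by 0.80 ± 0.16 with the term (adjusted p = 0.0070), against 0.83 ± 0.29 without it (0.64). In cdSRCAP cells Ccnd3 was at 96.2 and 90.4 CPM in controls and 145 and 112 CPM after IAA, and was not called (0.43 ± 0.16 with the term, adjusted p = 0.17). The difference between the clones in the Ccnd3 response was -0.36 ± 0.22 with the term and did not pass (adjusted p = 0.998).

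Cdk6 and Ccne1 passed in cdSRCAP cells with the replicate term. Cdk6 was at 79.5 and 70.9 CPM in cdSRCAP controls and at 128 and 114 CPM after IAA (0.68 ± 0.15, adjusted p = 0.017, and 0.68 ± 0.25 without the term, 0.81). Ccne1 was at 147 and 163 CPM in controls and at 228 in both treated libraries (0.56 ± 0.14, adjusted p = 0.043, and 0.56 ± 0.23 without the term, 0.87). In wtSRCAP cells Cdk6 was at 112 and 84.2 CPM in controls and 159 and 106 CPM after IAA, and Ccne1 at 186 and 243 CPM and then 220 and 304 CPM. There, log2 fold changes with the term were 0.42 ± 0.15 and 0.28 ± 0.14, neither called (adjusted p = 0.12 and 0.31). The difference between the clones was 0.26 ± 0.21 for Cdk6 and 0.28 ± 0.20 for Ccne1 with the term (adjusted p = 0.998 for both), so a difference in response was not shown. In this table the summed level of 14 G1/S genes was 3021 to 3723 CPM in replicate 1 and 4642 to 5517 CPM in replicate 2, and mitotic genes summed to 3440 and 4291 CPM in cdSRCAP controls and 4681 and 4800 CPM after IAA. Their part in these results was not tested.

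Cdk2 and Cdk4 lay above their controls in both clones, with log2 fold changes of 0.28 to 0.33 with and without the term and no call. Cdkn1b was at 23.2 and 25.9 CPM in wtSRCAP controls and 35.5 and 28.9 CPM after IAA, and at 13.2 and 20.9 CPM in cdSRCAP controls and 19.9 and 21.4 CPM after IAA. Rb1 was below 9.2 CPM in all 8 libraries, and Ccne2 between 7.78 and 14.0 CPM. None of these 3 was called in either clone.

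**Figure D4:**
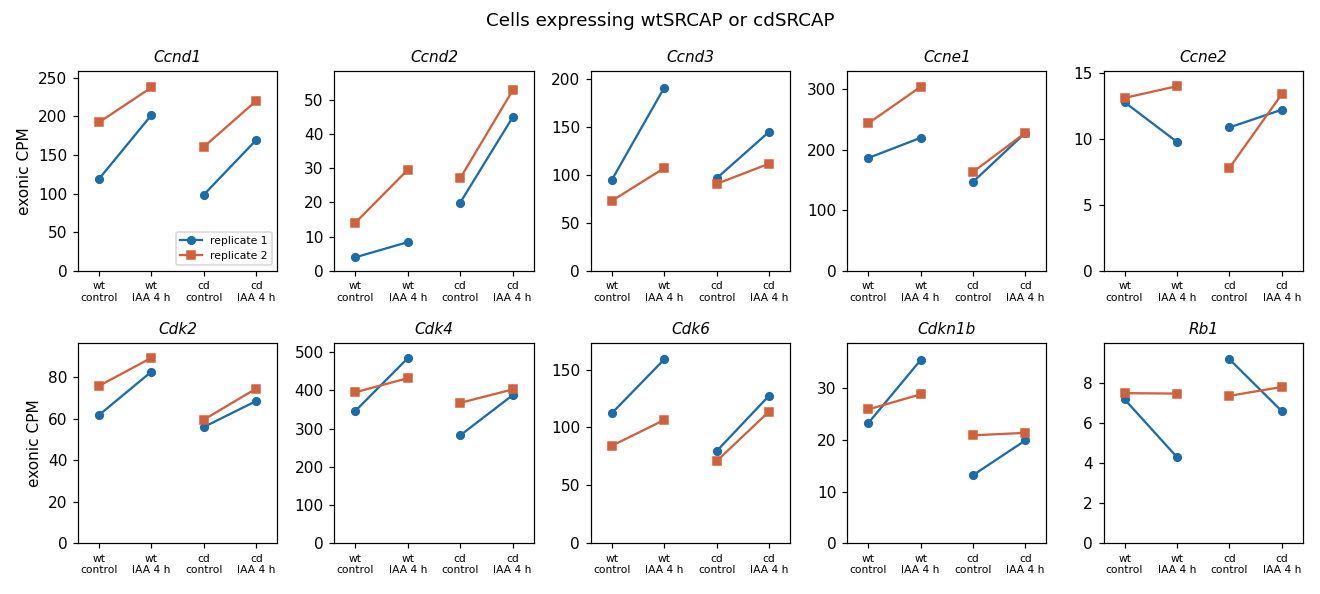
Exonic CPM of the 10 genes in cells expressing wtSRCAP (wt) or cdSRCAP (cd), control and after 4 h of IAA, with a line joining libraries of the same replicate number. All genes but Ccne2 and Rb1 go up along all 4 lines, and Ccnd2 differs between replicates in wtSRCAP cells (3.95 and 14.1 CPM in controls).

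Without the replicate term, edgeR called 0 of the 10 after IAA in either clone, beside 0.00523% of 19111 genes in wtSRCAP and 0% in cdSRCAP cells, and DESeq2 without the term also called 0. Unadjusted p fell under 0.05 for 1 (Ccnd3) and 2 (Ccne1 and Cdk6), against 7.4% and 5.64% of genes. With the term, 3 were called in wtSRCAP (Ccnd1, Ccnd2 and Ccnd3) and 4 in cdSRCAP cells (Ccnd1, Ccnd2, Ccne1 and Cdk6), all higher after IAA, beside 1.74% and 0.523% of genes called higher and 3.2% and 1.81% called in either direction. Both treated libraries lay above both controls for 5 and 8 of the 10, beside 14.9% and 18.7% of genes. They lay below both controls for 0 of the 10 in either clone, beside 19.5% and 19% of genes. Median log2 fold changes over the 10 were 0.35 and 0.46 without the term, and over all genes -0.024 and 0.022. DESeq2 with the term called 2 in wtSRCAP (Ccnd1 and Ccnd3) and 3 in cdSRCAP cells (Ccnd1, Ccne1 and Cdk6). No share of all genes is given beside these DESeq2 counts, so they have no background.

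Each of these 7 edgeR calls depended on single libraries. When each of the 8 was left out of the fit with the term in turn, Ccnd1 was called 5 times, Ccnd2 6 times and Ccnd3 6 times in wtSRCAP cells. In cdSRCAP cells Ccnd1 was called 5 times, Ccnd2 6 times, Cdk6 5 times and Ccne1 2 times. The Ccnd2 log2 fold change moved from 1.07 to 0.36 without replicate 2 of wtSRCAP after IAA and to 0.69 without replicate 1 of the wtSRCAP controls (adjusted p = 0.39 and 0.41). In cdSRCAP cells it moved from 1.103 to 0.49 without replicate 1 after IAA (adjusted p = 0.95) and to 0.77 without replicate 2 of the controls (adjusted p = 0.19). The Ccnd3 value in wtSRCAP cells ranged from 0.54 to 1.07, that of Ccne1 in cdSRCAP cells from 0.38 to 0.74, and that of Cdk6 there from 0.58 to 0.81.

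Between the clones, Ccnd2 was the single gene of the 10 that edgeR called with the replicate term. Controls were at 3.95 and 14.1 CPM with wtSRCAP and at 19.96 and 27.1 CPM with cdSRCAP, and cells after IAA at 8.39 and 29.6 against 44.9 and 52.8 CPM. The cdSRCAP libraries lay above the wtSRCAP libraries both times. With the replicate term the difference of cdSRCAP minus wtSRCAP was 1.53 ± 0.29 in controls and 1.55 ± 0.28 after IAA (adjusted p = 0.0068 and 0.0045), and 1 of the 10 was called each time, beside 0.91% and 1.41% of genes in either direction and 0.612% and 0.591% called higher. Without the term the values were 1.37 ± 0.62 and 1.34 ± 0.61 (adjusted p = 1 and 0.95) and 0 were called by edgeR, beside 0% and 0.00523% of genes, and 0 by DESeq2. DESeq2 with the term did not call Ccnd2 either (1.61 ± 0.60 and 1.60 ± 0.59, adjusted p = 0.17 and 0.13). The call with the term was lost without replicate 1 of the wtSRCAP controls (1.102, adjusted p = 0.063) and, after IAA, without replicate 1 of the cdSRCAP cells (1.02, adjusted p = 0.24).

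Cdkn1b lay lower with cdSRCAP without overlap both times, at 13.2 and 20.9 against 23.2 and 25.9 CPM in controls and 19.9 and 21.4 against 35.5 and 28.9 CPM after IAA. Its difference was -0.53 ± 0.21 and -0.64 ± 0.21 with the term and was not called (adjusted p = 0.34 and 0.13). In controls, Ccne1, Ccne2, Cdk2 and Cdk6 also lay lower with cdSRCAP, without overlap and without a call (-0.46, -0.48, -0.25 and -0.37). In all, the groups did not overlap for 6 of the 10 in controls and for 4 after IAA, beside 29.8% and 33.7% of genes. Without the term, unadjusted p fell under 0.05 for 0 and 1 of the 10 (Cdkn1b after IAA), against 3.82% and 5.03% of genes. The difference between the clones in the response to IAA was called for 0 of the 10 by edgeR without and with the term and by DESeq2, as for 0% of all genes by edgeR, and its unadjusted p was under 0.05 for 0 of the 10, against 0.785% of genes.

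Without the replicate term, no marker of another cell type and no embryonic stem cell marker was called in any comparison. With it, some moved in wtSRCAP and cdSRCAP cells. Of 8 embryonic stem cell markers, Nanog rose after IAA in cdSRCAP cells (0.74 ± 0.16, adjusted p = 0.015) and Klf4 was higher in cdSRCAP than in wtSRCAP controls (0.84 ± 0.16, adjusted p = 0.0053). After IAA 3 of the 8 were higher in cdSRCAP cells (Nanog by 0.76, Klf4 by 0.71 and Zfp42 by 0.53), and Nes was lower (-0.88 ± 0.19, adjusted p = 0.018). Of 4 mesoderm markers, Eomes rose in wtSRCAP (1.16 ± 0.32, adjusted p = 0.043) and Kdr in cdSRCAP cells (1.57 ± 0.41, adjusted p = 0.046), and of 4 neuroectoderm markers Pax6 rose in both (0.84 ± 0.22 and 0.86 ± 0.22, adjusted p = 0.036 and 0.039). Of 5 fibroblast markers, 3 of which were tested, Thy1 rose in wtSRCAP cells (1.57 ± 0.37, adjusted p = 0.021). The summed level of the mesoderm list was 4.50 to 6.80 CPM in wtSRCAP controls and 9.70 to 15.3 CPM after IAA, and 7.08 to 7.71 and 15.3 to 16.7 CPM in cdSRCAP cells, that of neuroectoderm 45.5 to 129 CPM and that of fibroblast 5.12 to 12.1 CPM over the 8 libraries. Afp and Postn were at 0 in all 8. Their part in the results on cyclins was not tested.

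**Figure D5:**
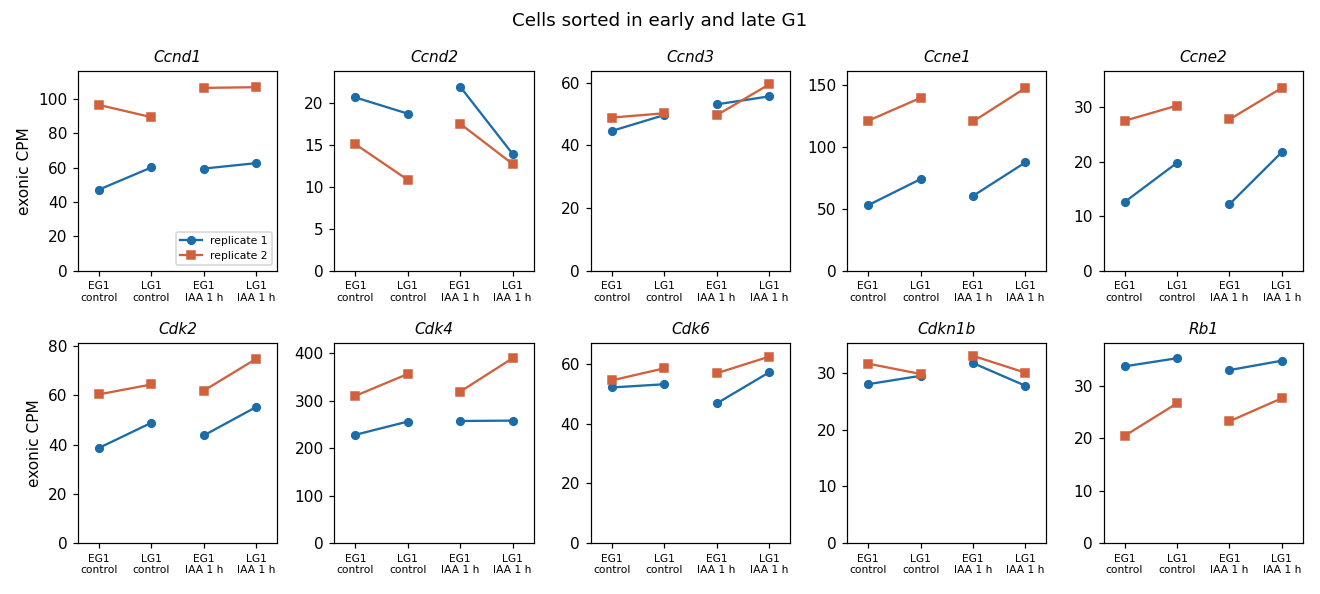
Exonic CPM of the 10 genes in EG1 and LG1 cells, control and after 1 h of IAA, with a line joining EG1 to LG1 of the same replicate number. Ccnd3, Ccne1, Ccne2, Cdk2, Cdk4, Cdk6 and Rb1 go up from EG1 to LG1 along all 4 lines and Ccnd2 goes down, while replicate 2 lies above replicate 1 in Ccnd1, Ccne1, Ccne2 and Cdk2 throughout.

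The sorted cells show how these RNAs differ between early and late G1. In this table too, libraries of the same number deviated together. Replicate 2 exceeded replicate 1 by 1.69-fold to 2.29-fold in Ccne1, by 1.53-fold to 2.28-fold in Ccne2 and by 1.49-fold to 2.04-fold in Ccnd1 over the 4 conditions. Summed mitotic genes differed in the same way, at 1381 to 1512 CPM in replicate 1 and 1927 to 2097 CPM in replicate 2, and so did summed G1/S genes, at 2505 to 3522 and 3835 to 4992 CPM. The part of these in the results on cyclins was not tested. Values with the replicate term compare EG1 with LG1 within a number. Within both numbers, 7 of the 10 were higher in LG1 and 1 lower in control cells, and 8 were higher and 2 lower after IAA. The share of all genes with the same sign in both numbers was not computed, so these counts have no background.

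In control cells, Ccne1 was at 53.0 (replicate 1) and 121 CPM (replicate 2) in EG1 and at 74.0 and 140 CPM in LG1. It was higher in LG1 within each number, by 0.48 and 0.20 on the log2 scale, while the groups overlapped. With the replicate term the difference was 0.33 ± 0.08 (adjusted p = 0.046), which passed the p threshold and not the fold threshold of 0.5, and without it 0.30 ± 0.50 (adjusted p = 1). After 1 h of IAA, Ccne1 was at 60.5 and 121 CPM in EG1 and 87.6 and 148 CPM in LG1 (0.41 ± 0.08, adjusted p = 0.0083 with the term, again under the fold threshold).

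Ccne2 was at 12.6 and 27.4 CPM in EG1 and 19.8 and 30.2 CPM in LG1 of control cells, and at 12.2 and 27.7 against 21.7 and 33.5 CPM after IAA. It was called after IAA with the term (0.51 ± 0.12, adjusted p = 0.029) and not in control cells (0.37 ± 0.12, adjusted p = 0.18). Cdk2 was at 38.7 and 60.5 CPM in EG1 and 48.9 and 64.5 CPM in LG1 of control cells, and at 43.8 and 62.0 against 55.3 and 74.9 CPM after IAA. Its difference with the term was 0.21 ± 0.07 and 0.30 ± 0.07 (adjusted p = 0.21 and 0.029), under the fold threshold both times.

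Ccnd2 went the other way. It was at 20.6 and 15.1 CPM in EG1 and at 18.7 and 10.8 CPM in LG1 of control cells, and after IAA at 21.9 and 17.5 CPM in EG1 and 13.9 and 12.7 CPM in LG1, where the groups no longer overlapped. With the term the difference was -0.29 ± 0.12 in control cells (adjusted p = 0.34) and -0.56 ± 0.12 after IAA (adjusted p = 0.017), a call. Ccnd1 was at 47.2 and 96.4 CPM in EG1 and 60.1 and 89.3 CPM in LG1 of control cells, opposite in its 2 numbers. Ccnd3, Cdk4, Cdk6, Cdkn1b and Rb1 differed between EG1 and LG1 by -0.17 to 0.21 with the term, none called.

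In control cells, edgeR called 0 of the 10 between EG1 and LG1 without and with the term, beside 0% and 0.723% of 21020 genes. After IAA it called 0 without and 2 with the term (Ccnd2 and Ccne2), beside 0% and 1.01% of genes. Without the term, DESeq2 called 0 both times and unadjusted p fell under 0.05 for 0 of the 10, against 1.44% and 2.31% of genes. The groups did not overlap for 1 of the 10 in control cells and 4 after IAA, beside 22.4% and 23.6% of genes. Without the term, the median difference was 0.14 and 0.17 over the 10, and -0.0008 and 0.012 over all genes. The Ccnd2 call was lost without either EG1 library after IAA or without replicate 1 of LG1 after IAA, where its difference was -0.40 (adjusted p = 0.19), and the Ccne2 call without replicate 1 of either phase after IAA (0.33 and 0.35, adjusted p = 0.23 and 0.31) or of the EG1 controls (0.49).

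The gates were checked on genes fixed for that purpose. With the replicate term, 2 of 14 G1/S genes were higher in LG1 of control cells (Rrm2 by 0.71 ± 0.089 and Cdc45 by 0.51 ± 0.081), none was lower, and the list's median was 0.31. Of 15 mitotic genes, 3 were higher in LG1, among them Aurkb (1.25 ± 0.11) and Top2a (0.92 ± 0.083), and 4 lower, among them Cdc20 (-0.93 ± 0.065). Mitotic genes summed to 1416 to 2097 CPM in EG1 and 1381 to 1947 CPM in LG1. All these adjusted p were 0.0013 or less.

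After 1 h of IAA the study's rule for sorted cells (absolute log2 fold change over 0.25 and unadjusted p under 0.05) was used, and 0 of the 10 were called in EG1 or in LG1 without the term, beside 1.22% and 1.02% of 21020 genes, and 0 with the term, beside 6.04% and 4.2%. DESeq2 without the term called 0. In EG1 the log2 fold changes lay between -0.04 and 0.21 and in LG1 between -0.15 and 0.20. The groups did not overlap for 2 of the 10 in EG1 (Ccnd3 and Cdkn1b) and 1 in LG1 (Ccnd3), beside 21.4% and 18.3% of genes. Ccnd3 was at 44.6 and 48.9 CPM in EG1 controls and 53.1 and 49.6 CPM after IAA, and at 49.7 and 50.3 and then 55.6 and 59.5 CPM in LG1. With the term its log2 fold change was 0.14 ± 0.07 and 0.20 ± 0.07. The difference between the responses of LG1 and EG1 was called for 0 of the 10 without and with the term, as for 0% of all genes, by DESeq2 for 0, and at an unadjusted p under 0.05 for 0, against 0.699% of genes.

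Intron counts bear on recent transcription, and only part of the tables holds them cleanly. In EG1 and in the SYAT table, 44.7% and 53.1% of genes with a single exon block and at least 20 exon counts in every library also had intron counts, against 0.0959% in LG1, 0.0537% in CGR8 and 0.0935% in wtSRCAP and cdSRCAP cells, so these columns there hold exonic reads too. EG1 was therefore not compared with LG1 in introns. Ccnd1, Ccnd2, Ccne2, Cdk2 and Cdkn1b were listed at 0 or under 33 intron counts in CGR8, wtSRCAP and cdSRCAP libraries. This leaves no usable value for them there. Cdk6, which spans the longest gene body of the 10, was at 553 and 600 CPM of the intron total in cdSRCAP controls and at 837 and 865 CPM after IAA, and at 614 and 531 and then 683 and 698 CPM in wtSRCAP cells. Its log2 fold changes in introns were 0.65 ± 0.16 and 0.34 ± 0.16 (adjusted p = 0.15 and 0.42 by edgeR). Ccnd3 was at 61.7 and 48.6 CPM in wtSRCAP controls and 80.2 and 58.9 CPM after IAA (0.41 ± 0.26, adjusted p = 0.57), which overlapped. Ccne1 was at 52.2 and 56.8 CPM in cdSRCAP controls and 71.0 and 73.0 CPM after IAA (0.49 ± 0.21, adjusted p = 0.43). In CGR8 cells only 5 of the 10 had enough intron counts to be tested. Of those tested in intron columns, no gene of the 10 passed in any comparison fitted.

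The rest of the G1 network was described by 3 lists. They were 6 other CDK inhibitors, 12 pocket protein, E2F and DP genes, and 15 genes of kinase activation and of cyclin or p27 turnover. Without the replicate term 0 of these 33 were called in any comparison. With it, of the 12 pocket protein, E2F and DP genes, 1 was higher in LG1 than in EG1 of control cells, E2f8 (0.85 ± 0.13, adjusted p = 0.00059), a repressor among the E2Fs. After IAA 4 were, led by E2f8 (0.95 ± 0.13), Rbl1, a relative of Rb1 (0.57 ± 0.094), and E2f1, an activator (0.55 ± 0.074), all with adjusted p of 0.0013 or less. The list's median was 0.31 and 0.40, beside 0.0006 and 0.0099 over all genes. Of the 15 genes of activation and turnover, Cdc25a, a phosphatase that activates CDK2, was higher in LG1 after IAA (0.58 ± 0.11, adjusted p = 0.0059). Of the CDK inhibitors, Cdkn2b passed the rule for 1 h of IAA in EG1 (0.35 ± 0.12, unadjusted p = 0.0092 by edgeR, adjusted p = 0.43). In CGR8, wtSRCAP and cdSRCAP cells after 4 h of IAA, and between the clones, none of the 3 lists held a call with the term. In the SYAT time course none did either.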

How the data were processed

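Nuclear RNA-seq of 30 libraries (15 conditions, 2 replicates each) was analysed. According to the study's methods and the processing notes, the authors mapped reads to mm10 with STAR, using SAMtools 1.10 and Picard, and counted them with featureCounts on exons and on gene bodies without exons (GENCODE vM25). They deposited whole-number counts per gene, without normalization. Their deposited tables of log2 fold changes and p-values were not used. Symbols, coordinates and lengths came from GENCODE vM21 (54349 of 55401 identifiers with the same version, 55141 without it).

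The 10 genes and all lists were chosen with earlier results of these data known. Every gene of the 10 was named throughout, and from each other list at most 3 called genes per comparison, by absolute log2 fold change, or the highest expressed markers. Outside that rule, the levels of Sox2, Nanog and Klf4 were given in every part of the series, and those of Postn and Afp, at or near 0. Each table was fitted whole with edgeR 4.0.16 in R 4.3.3 (filterByExpr, minimum count 10 and minimum total 15, TMM scaling, glmQLFit and glmQLFTest), with Benjamini-Hochberg adjustment over all genes. A call needed an absolute log2 fold change over 0.5 and adjusted p under 0.05, in sorted cells after 1 h of IAA 0.25 and unadjusted p under 0.05, and for differences between responses adjusted p under 0.05. DESeq2 1.42.0, RLE scaling, no filter, a replicate term, single comparisons, intron columns and leaving out each library were alternatives, and the scripts were tested on simulated data. CPM and RPKM in exons were computed on the exon total over the genes that passed the filter, scaled by TMM. Intron CPM used the intron total without scaling.

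Deviations of same-numbered libraries from their condition means correlated at r = 0.372 to 0.586 over 6 pairs of conditions in sorted cells and at 0.259 to 0.376 over 6 pairs in wtSRCAP and cdSRCAP cells, so the numbers pair the samples there, by the data and not by the labels. In the SYAT and CGR8 tables they were not taken as pairs. With 2 libraries per condition, edgeR's p-values set each difference against a spread estimated over all conditions of a count table. They cover these samples only.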

Additional observations from a re-analysis of the deposited data

Results flagged for a closer look

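Cdkn1b moved in opposite directions after 4 h of IAA in CGR8 and in SYAT cells, with no overlap in either line. In CGR8 cells both treated libraries (16.9 and 19.4 CPM) lay below both controls (23.1 and 22.3 CPM), with a log2 fold change of -0.32. In SYAT cells both treated libraries (27.5 and 25.9 CPM) lay above both controls (24.9 and 25.2 CPM), with a log2 fold change of 0.093. Neither change was called, the tables are separate, and the difference was not tested. Groups lay lower without overlap for 20.6% of 20250 genes in CGR8 cells. They lay higher without overlap for 21.7% of 19205 genes in SYAT cells at 4 h.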

How the results depend on the processing

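With 2 libraries per condition, edgeR without the replicate block called 0 of the 10 genes in all 15 comparisons, and scaling by RLE and fits of only the conditions compared gave 0 as well. With the replicate block, edgeR called 1 of the 10 in CGR8 cells (Ccne2) and 1 at 6 h and at 8 h in SYAT cells (Ccnd2), tables whose numbers were not taken as pairs, since not every pair of conditions correlated above 0.1 (r = 0.0736 in CGR8 cells, and in SYAT cells 0.267 to 0.589 without and -0.0359 to 0.0623 with the 6 h condition), 2 between LG1 and EG1 after IAA, 3 and 4 after IAA in wtSRCAP and cdSRCAP cells, and 1 between these clones in controls and after IAA. Over all genes, edgeR with the block called 2.47% in CGR8 cells and 4.29% and 3.3% at 6 and 8 h in SYAT cells. DESeq2 with the block called 1 in CGR8 cells, 1, 3 and 1 at 4, 6 and 8 h in SYAT cells, 2 between LG1 and EG1 after IAA, 1 in EG1 after IAA, and 2 and 3 in wtSRCAP and cdSRCAP cells, and 0 between the clones. It called 260 genes higher and 128 lower of 30751 in CGR8 cells, and 136 and 213 of 35880 at 4 h in SYAT cells. For its other comparisons no count over all genes is given here, so those calls have no background. DESeq2 without the block called 2 at 6 h and 1 at 8 h, beside 223 higher and 351 lower of 35880 genes at 6 h and 87 and 272 at 8 h. With no filter on low counts, edgeR called 1 in CGR8 cells (Ccne2), 2 at 6 h, 1 at 8 h, and 1 (Ccnd2) between the clones in controls and after IAA. Among all genes, that setting called 276 higher and 110 lower of 30751 in CGR8 cells. At 6 h it called 490 and 395 of 35880, and at 8 h 189 and 259. The cause was not tested. The block changed no other call among the 10. Of the markers, it called Nanog (0.62 and 0.68) and Pax6 (0.70 and 0.90) at 6 and 8 h and Eomes (0.73) at 6 h in SYAT cells, and Nanog (0.63), Pax6 (0.54) and Nes (-0.51) in CGR8 cells.

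Leaving out 1 library without the block gave 0 to 1 calls in CGR8 cells (Ccne2 at 0.96 without replicate 2 of the controls) and 0 to 4 at 6 h, where the 4 (Ccnd1, Ccnd3, Ccne2 and Cdk4) appeared without replicate 1, which leaves replicate 2 as the only 6 h library and assumes that it varies like the rest, and 0 elsewhere. With the block, a setting chosen after seeing the data, leaving out 1 library gave 0 to 1 calls between LG1 and EG1 in control cells, 0 to 3 after IAA, 0 to 2 for 1 h of IAA in EG1 and 0 to 3 in LG1, 0 to 5 after IAA in wtSRCAP and 0 to 4 in cdSRCAP cells, 0 to 1 and 0 to 2 between the clones in controls and after IAA, and 0 to 1 for the difference between their responses. Of 11 calls with the block in the 2 paired tables, 0 held without each library in turn.

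Intron fits were not run for EG1 against LG1 or for the difference between their responses, because EG1 intron columns hold exonic reads. Of 2991 values of single genes under an alternative, 240 had the opposite sign to that reported. Depth limited Rb1 and Ccnd2 most, at 44 and 61 exon counts in their lowest libraries.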

Other observations

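Cdkn1a, which encodes the CDK inhibitor p21 and was singled out after its values were seen, was the most abundant of the 6 other CDK inhibitors in each table. It was at 152 to 210 CPM in the 8 libraries sorted in G1, at 38.2 to 63.1 CPM in the 10 unsorted SYAT libraries, at 17.9 to 24.9 CPM in CGR8 cells and at 10.3 to 16.9 CPM in wtSRCAP and cdSRCAP cells. Rb1 was at 20.4 to 35.2, 10.3 to 16.7, 5.54 to 9.38 and 4.29 to 9.19 CPM in the same tables, and the last 2 ranges overlapped. These tables differ in line, sorting and sequencing, which cannot be told apart, and no test was made between them.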
